A study of Mus musculus with 21 samples.

Results

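Lungs of male mouse fetuses taken at E18.5 (embryonic day 18.5) were compared between dams that inhaled cigarette smoke (CS) and dams that breathed filtered air (AIR). The 6 CS males and 5 AIR males, the fetuses marked M in the sample descriptions, make 11 of the 21 mRNA arrays of the series, with 1 array and 1 lung per fetus, and each male comes from a different litter. All fetuses were WT on the Balb/c background. The CS dams received mainstream smoke of 3R4F research cigarettes from gestational day 2.5 to 17.5, and the AIR dams, which the labels also describe as untreated, went through the same period in filtered air. The study's methods state that fetuses with neighbours of the same sex, or at the end of a uterine horn, were chosen. Values were read for 22179 genes that carry 1 symbol, each from its brightest probe set by the mean of the 21 arrays, as log2 intensities. A log2 difference of 1 is a doubling, and all differences are CS minus AIR.

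In late gestation the epithelium of the mouse distal lung leaves a phase dominated by cell division and differentiates into flat type I cells and cuboidal type II cells, which make surfactant, the lipid and protein film that keeps air spaces open after birth. Type II cells assemble surfactant lipids from fatty acids in lamellar bodies, while club cells of the conducting airways acquire secretory proteins and cytochrome P450 enzymes. Endothelium and matrix of the future air-blood barrier expand in the same period.

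The sex given in the labels was matched by the arrays. Xist, the RNA that coats the inactive X chromosome, lay between 2.75 and 3.62 in CS males and between 2.67 and 3.55 in AIR males, against 9.40 to 9.73 in the females of the series. The Y-linked gene Kdm5d lay between 4.67 and 5.33 in CS males and between 4.98 and 5.67 in AIR males, against 0.96 to 1.46 in females. Lung identity was also clear, with surfactant protein C (Sftpc) between 11.29 and 11.55 in CS males and between 11.50 and 11.57 in AIR males. Array medians were 2.11 to 2.17, and arrays correlated with each other at 0.956 to 0.970. Several dissections carried other tissue. The mean of 21 heart muscle genes was 6.05 in CS male 6 and 5.96, 6.40 and 5.77 in AIR males 2, 3 and 5, against 3.81 to 4.40 in the other arrays. CS male 1 stood apart in 18 thymocyte genes, with a mean of 4.95 against 1.73 to 2.70 elsewhere. The fetuses also fall into a lower and a higher range of animal numbers, with 4 CS and 2 AIR males in the lower and 2 CS and 3 AIR males in the higher range. What the numbers stand for is not given in the sources used here.

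At the threshold of the study, an absolute fold over 1.2 with an unadjusted limma p under 0.05, 534 of 22179 genes were higher (2.41%) and 477 were lower (2.15%) in CS males. After Benjamini-Hochberg adjustment over 40543 probe sets, limma called 0 at a false discovery rate of 10% (0.0%), and the lowest adjusted p was 0.30. An ordinary fit without moderation of the variances also called 0, with a lowest adjusted p of 0.37. At an unadjusted p under 0.05, 2215 probe sets (5.46%) were found. No single gene below is therefore past a corrected threshold, and "higher" and "lower" refer to the fold and unadjusted p of the study. The median difference over all genes was 0.01, and the groups did not overlap in 63 genes that were higher and 49 that were lower, 0.505% of the genes.

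Leaving out the lists of other tissues, the widest common movement was in genes of cell division. All 21 heart muscle genes were negative (median -0.91) and all 18 thymocyte genes positive (median 0.58). Of 43 genes of mitosis, 21 were higher and 0 lower in CS males, with a median difference of 0.44 over the list, and all 43 differences were positive. Of 40 genes of DNA replication, 17 were higher and 0 lower, with a median of 0.38. These counts stand beside 2.41% of all genes higher. In contrast, 6 of 29 genes of alveolar type II cells were lower and 0 higher, with a median of -0.32, and 3 of 23 genes of club and airway secretory cells were lower and 0 higher, with a median of -0.22, beside 2.15% of all genes lower. Since whole lungs were measured, fewer cells of a type and less RNA per cell cannot be told apart.

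**Figure D1:**
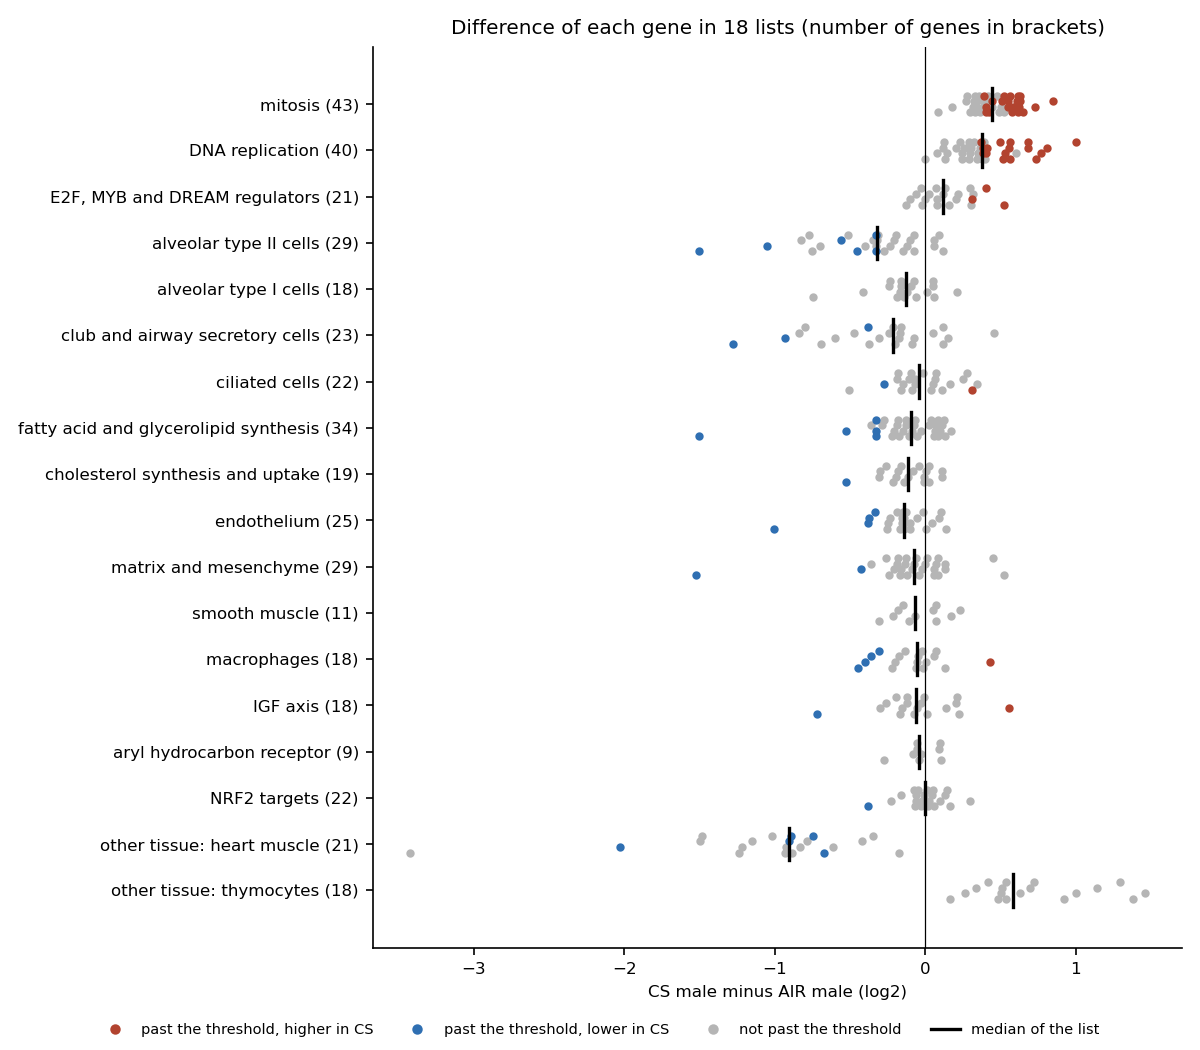
Each point is a gene, placed by its log2 difference between CS males (n = 6) and AIR males (n = 5), in 18 gene lists, with the median of each list as a black bar; red and blue points are past a fold of 1.2 and an unadjusted p of 0.05. All 43 mitosis genes lie right of 0, the type II and club cell lists lie mostly left of it, and the heart muscle list lies wholly left of it.

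Among replication genes, Rfc5, a subunit of the clamp loader that places PCNA on DNA, had the lowest p of the list. Rfc5 was at 4.34, 4.65 and 4.94 (lowest, median and highest) in CS males, against 3.59, 4.20, 3.92, 4.19 and 3.99 in AIR males. Every CS lung lay above every AIR lung. The difference was 0.68 ± 0.14 (SE, exact permutation p = 0.0043, limma adjusted p = 0.88), and it was 0.81 within the lower and 0.53 within the higher animal numbers.

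Of 74 genes past the threshold that were refitted with each of the 11 arrays left out in turn, 31 passed it each time, among them Rfc5, Gins4, Rrm2, Ccnb2, Gpam, Cyp4b1, Vwf, Grk5, Afap1l1 and Inmt, and 43 did not at least once. Of the 43, Deup1 missed it in 9 of the 11 refits, and Actn2, Fabp5, Itgb1bp2 and Myc in 8. Aldh1a1, Cd36, Cox8b, Csf1r, Lyz2, Mcm5, S100g, Sln and Xbp1 missed it in 7. Gins4, a subunit of the GINS complex that activates the replicative helicase, was at 6.32, 6.43 and 6.78 in CS males, against 5.79, 6.01, 6.08, 5.94 and 6.24 in AIR males. The groups again did not overlap, and the difference was 0.50 ± 0.12 (SE, exact permutation p = 0.0022, limma adjusted p = 0.89). Rrm2, the regulated subunit of ribonucleotide reductase, which supplies deoxynucleotides, had the largest positive difference of all 534 genes that were higher. It was at 4.32, 4.63 and 5.46 in CS males, against 3.34, 3.22, 4.20, 3.60 and 4.18 in AIR males. Rrm2 did not overlap between the groups either, with a difference of 1.01 ± 0.24 (SE, exact permutation p = 0.0022, limma adjusted p = 0.89), and with 1.59 within the lower and 0.41 within the higher animal numbers. A second probe set of Rrm2 gave 0.52. The permutation p of 0.0022 is the smallest that 462 regroupings of 6 and 5 fetuses can give. Rfc5, Gins4 and Rrm2 were 3 of the 40 replication genes, beside 0.505% of all genes without overlap.

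Other replication genes were higher with groups that overlapped. Prim1, the catalytic subunit of primase, differed by 0.77 ± 0.23, Uhrf1, which reads hemimethylated DNA behind the fork, by 0.81 ± 0.31, and Mcm6, a subunit of the helicase ring, by 0.74 ± 0.25 (SE). Outside the list, Dut, the enzyme that removes dUTP, differed by 0.71 ± 0.22, although a second, dim probe set of Dut gave 0.12. Pcna, the sliding clamp, differed by 0.40 ± 0.17. In the lower animal numbers the differences of Prim1, Uhrf1, Mcm6 and Pcna were 1.11, 1.3, 1.37 and 0.74, and in the higher animal numbers they were 0.51, 0.30, 0.18 and 0.04. AIR male 5 had the highest Uhrf1, Mcm6 and Pcna values of the AIR lungs, at 5.27, 5.39 and 7.04.

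Among mitotic genes, Ccnb2 (cyclin B2), which drives entry into mitosis with CDK1, had the lowest p. Ccnb2 was at 6.13, 6.36 and 6.79 in CS males, against 5.20, 5.27, 5.66, 5.84 and 6.36 in AIR males. AIR male 5 alone reached into the CS range. The difference was 0.73 ± 0.20 (SE, exact permutation p = 0.013, limma adjusted p = 0.89). Racgap1, a component of the central spindle, differed by 0.62 ± 0.17 (exact permutation p = 0.0087), with AIR lungs at 4.26 to 5.23 and CS lungs at 5.13 to 5.79.

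Bub1b, a kinase of the spindle checkpoint, had the largest difference of the list at 0.85 ± 0.25 (SE), and Cenpf, which binds kinetochores, differed by 0.62 ± 0.21. Cdk1 itself differed by 0.63 ± 0.23 and Top2a, which untangles chromosomes, by 0.58 ± 0.25, although Top2a did not pass the threshold without any 1 of CS males 1, 2 and 3 and AIR males 1, 2 and 3. Mki67, the proliferation antigen, differed by 0.53 ± 0.27 and did not pass the threshold. Outside the lists, Cdc25c, the phosphatase that activates CDK1, Spag5 (astrin) and the kinesin Kif18b were among the 12 largest positive differences of genes past the threshold with a mean of at least 4, at 0.84 ± 0.21, 0.81 ± 0.23 and 0.69 ± 0.27. In CS males Cdc25c had its lowest, median and highest value at 3.54, 4.05 and 4.59, against 2.82, 2.98, 3.16, 3.20 and 3.76 in AIR males.

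**Figure D2:**
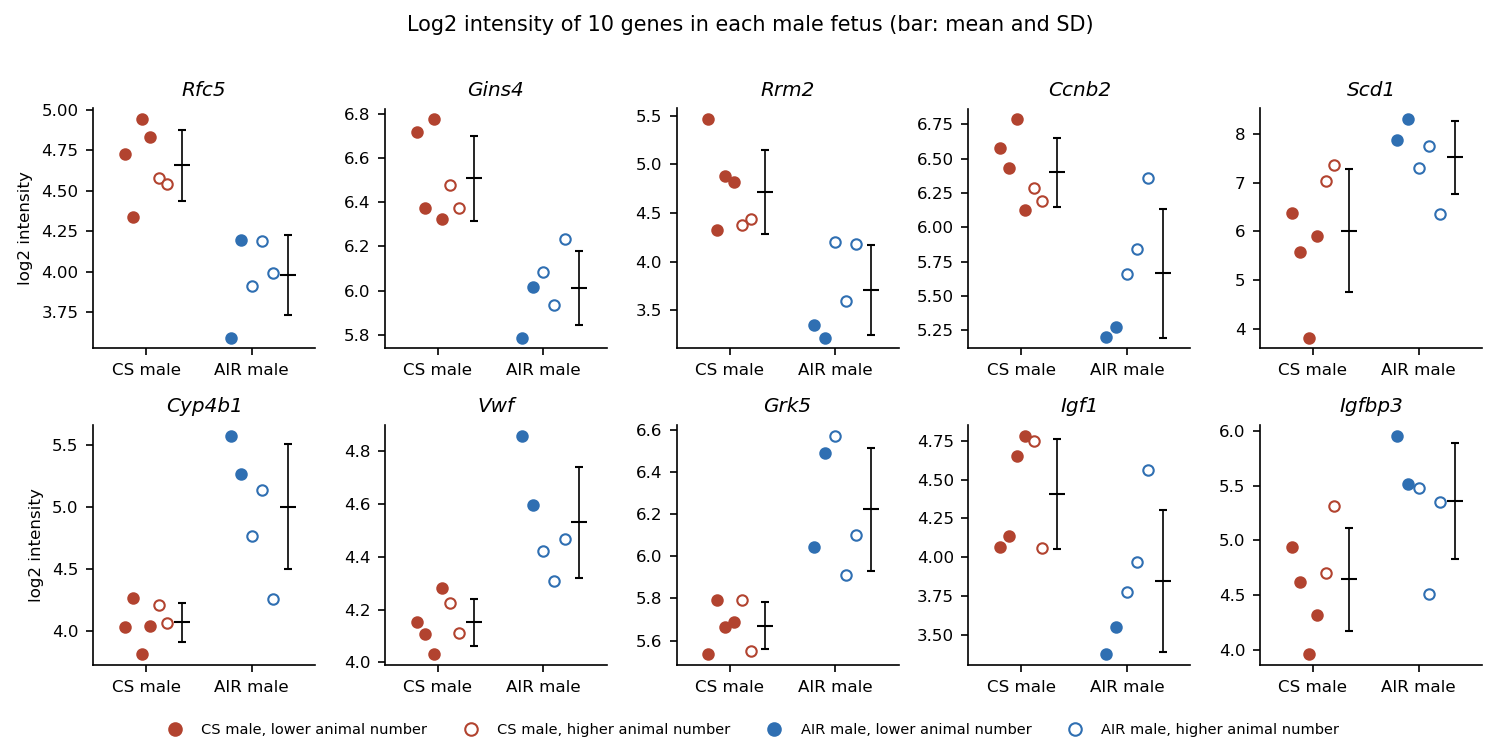
Log2 intensity of 10 genes in each lung of CS males (n = 6, red) and AIR males (n = 5, blue), with filled circles for the lower and open circles for the higher animal numbers and a bar for the mean and SD. Rfc5, Gins4, Rrm2, Vwf and Grk5 show no overlap between the groups, while in Ccnb2, Scd1, Cyp4b1, Igf1 and Igfbp3 at least 1 AIR lung lies within the range of the CS lungs.

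The promoters of both lists are shown because their members moved together and because cell cycle promoters are known by 3 short motifs. The cell cycle genes homology region (CHR, TTTGAA) is bound by the DREAM complex and by MYB-MuvB with FOXM1, the CCAAT box (CCAAT) by NF-Y, and E2F sites, searched as TTTGGCGC, TTTCGCGC, TTTGGCGG or TTTCCCGC, by E2F factors. Each was searched on both strands in RefSeq windows (GRCm38.p6) of 250 bases before to 50 bases after the gene start. In the first pair of windows below, capitals mark CHR and CCAAT words of Ccnb2 (chr9:70421505-70421804, minus strand) and Racgap1 (chr15:99651607-99651906, minus strand), and no marked words overlap.
Ccnb2: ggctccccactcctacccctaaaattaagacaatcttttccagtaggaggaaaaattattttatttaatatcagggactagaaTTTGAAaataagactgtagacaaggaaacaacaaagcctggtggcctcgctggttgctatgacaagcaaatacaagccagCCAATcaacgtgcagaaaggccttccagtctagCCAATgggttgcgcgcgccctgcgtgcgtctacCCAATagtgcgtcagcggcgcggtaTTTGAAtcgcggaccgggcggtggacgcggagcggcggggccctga
Racgap1: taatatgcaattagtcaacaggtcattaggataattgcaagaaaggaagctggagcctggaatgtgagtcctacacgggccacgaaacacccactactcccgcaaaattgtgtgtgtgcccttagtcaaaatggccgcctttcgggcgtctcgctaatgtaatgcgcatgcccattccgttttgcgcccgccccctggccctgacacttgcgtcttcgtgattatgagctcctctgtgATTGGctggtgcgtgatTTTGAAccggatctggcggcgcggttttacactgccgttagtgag
In the second pair, capitals mark E2F words of Mcm6 (chr1:128359656-128359955, minus strand) and Cdc6 (chr11:98907901-98908200, plus strand), a loader of the helicase at origins. In Mcm6 a word on one strand overlaps a word on the other.
Mcm6: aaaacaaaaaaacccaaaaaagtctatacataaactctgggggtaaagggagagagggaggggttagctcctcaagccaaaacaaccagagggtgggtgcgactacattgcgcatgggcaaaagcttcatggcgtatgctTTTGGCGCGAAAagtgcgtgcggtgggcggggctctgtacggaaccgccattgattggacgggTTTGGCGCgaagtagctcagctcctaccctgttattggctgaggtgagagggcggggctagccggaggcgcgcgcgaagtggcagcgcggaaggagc
Cdc6: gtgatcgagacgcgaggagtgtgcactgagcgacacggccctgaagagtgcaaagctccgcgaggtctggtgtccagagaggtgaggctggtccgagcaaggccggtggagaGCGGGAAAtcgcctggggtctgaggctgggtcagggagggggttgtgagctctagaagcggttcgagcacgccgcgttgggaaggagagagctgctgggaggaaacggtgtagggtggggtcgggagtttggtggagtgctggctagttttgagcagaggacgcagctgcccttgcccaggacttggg
The CHR word was present in 26 of 36 mitosis windows (72.2%), against 18.1% of all 27025 windows, and both CHR and CCAAT in 21 of 36 (58.3%), against 7.12%. The E2F words were present in 16 of 32 replication windows, against 2.42% of all windows. Within the mitosis list, the CHR word was in 13 of 17 windows of genes that were higher in CS males and in 13 of 19 windows of genes that did not pass the threshold. Within the replication list, E2F words were in 4 of 13 windows of the higher genes and in 12 of 19 windows of the others. Every printed window holds the words marked in it, so the printed windows do not show how common a word is in its list. The windows of Rfc5, Gins4, Rrm2 and Prim1, the replication genes with the lowest p, are not printed. A word in a window is not a measured site.

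Of 21 genes in the list of E2F, MYB and DREAM regulators, 3 were higher and 0 lower, beside 2.41% of all genes higher, with a median difference of 0.12. The count was 1 without CS male 3, AIR male 1 or AIR male 2, between 2 and 4 without any other single array, and 0 with the heart muscle covariate. E2f8 and E2f7, repressors that are themselves made in S phase, differed by 0.52 ± 0.22 and 0.31 ± 0.13 (SE). Ezh2, a histone H3K27 methyltransferase that is also in the list, differed by 0.41 ± 0.16. Mybl2 and Foxm1, activators of mitotic genes, differed by 0.32 ± 0.23 and 0.30 ± 0.18 and did not pass the threshold. Mybl2 differed by 1.0 within the lower and by -0.45 within the higher animal numbers. Cdca7l, a nuclear protein outside the list that binds MYC, differed by 0.75 ± 0.20, with CS lungs at 3.39 to 4.44 and AIR lungs at 3.05 to 3.78. Of 21 p53 targets, 1 was higher and 1 lower (median -0.09), beside 2.41% of all genes higher and 2.15% lower.

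The mean of the mitosis list was 4.68, 4.95 and 5.45 (lowest, median and highest) in CS males, against 4.08, 4.41, 4.42, 4.66 and 5.06 in AIR males, and the ranges overlapped. CS male 3 had the highest mitosis mean and AIR male 1 the lowest. Without AIR male 5, 32 of the 43 mitosis genes were higher, and without AIR male 1, 10 were. The leave-one-out counts for the other arrays were 12 without CS male 1, 14 without CS male 2, 13 without CS male 3, 12 without AIR male 2 and between 15 and 25 otherwise, with 0 lower each time. For DNA replication the counts were 9 without AIR male 1, 10 without AIR male 2 and 10 without CS male 1, and between 12 and 21 otherwise. Thymocytes divide, and CS male 1, with the high thymocyte genes, had a mitosis mean of 5.19. CS male 3, the highest in mitosis, had a thymocyte mean of 2.0, within the range of the other lungs. With the mean of the heart muscle list as a covariate, 5 mitosis genes and 12 DNA replication genes were higher. With the 6 arrays high in other tissue left out, which leaves 3 CS and 2 AIR males, 24 and 14 were. The 6 were CS males 1, 5 and 6 and AIR males 2, 3 and 5. CS male 5 had the highest mean of oesophagus genes, at 3.81. CS male 1 and AIR male 5 had 3.45 and 3.42, and AIR male 1, which was kept, had 3.10. The part of these tissues in the result was not tested.

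**Figure D3:**
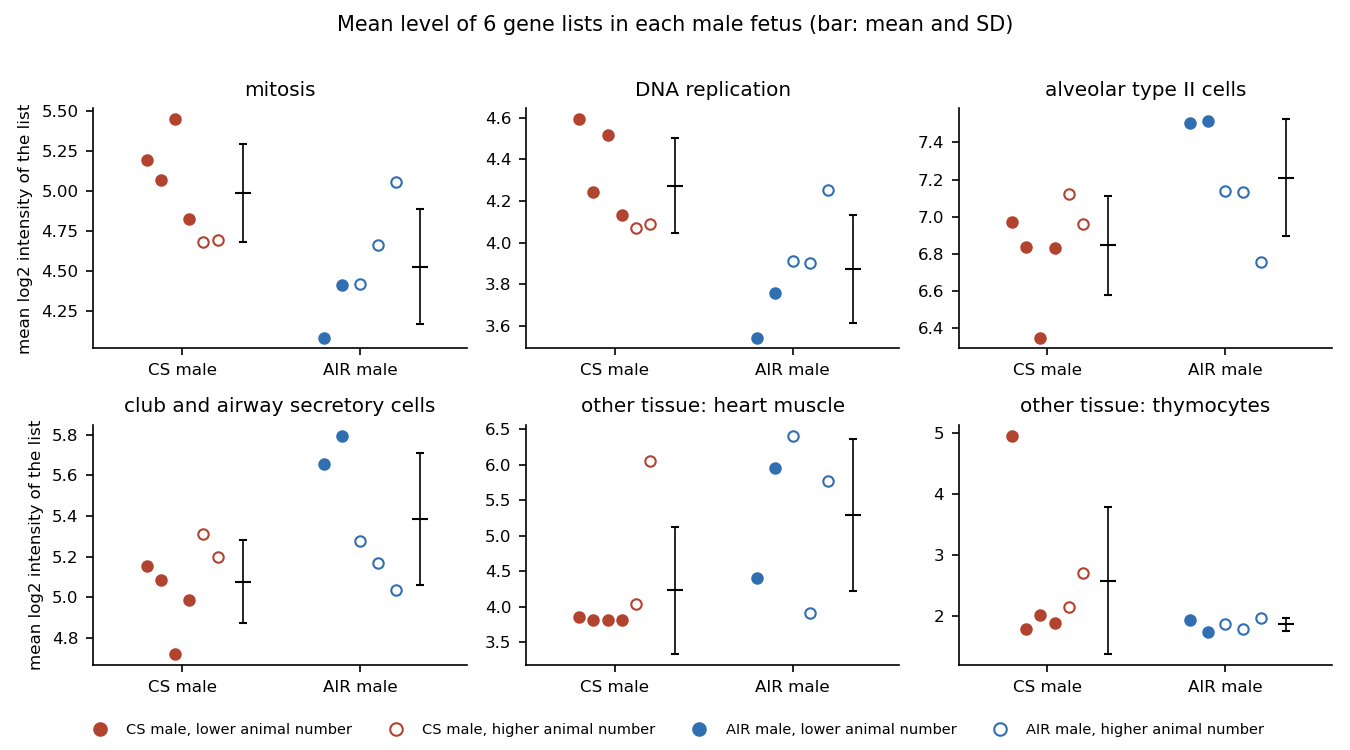
Mean log2 intensity of 6 gene lists in each lung of CS males (n = 6, red) and AIR males (n = 5, blue), with filled circles for the lower and open circles for the higher animal numbers and a bar for the mean and SD. CS male 3 is highest in mitosis and lowest in type II genes, AIR male 5 is highest in mitosis and lowest in type II genes among AIR lungs, and high heart muscle values occur in 1 CS and 3 AIR lungs.

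Within the lower animal numbers 37 of 43 mitosis genes and 27 of 40 DNA replication genes were higher, with medians of 0.90 and 0.70. Within the higher animal numbers 0 mitosis genes and 3 replication genes were, with medians of -0.03 and 0.04. A fit that blocked on the number range had 17 and 16 genes higher. Whether the effect differed between the ranges was not tested.

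**Figure D4:**
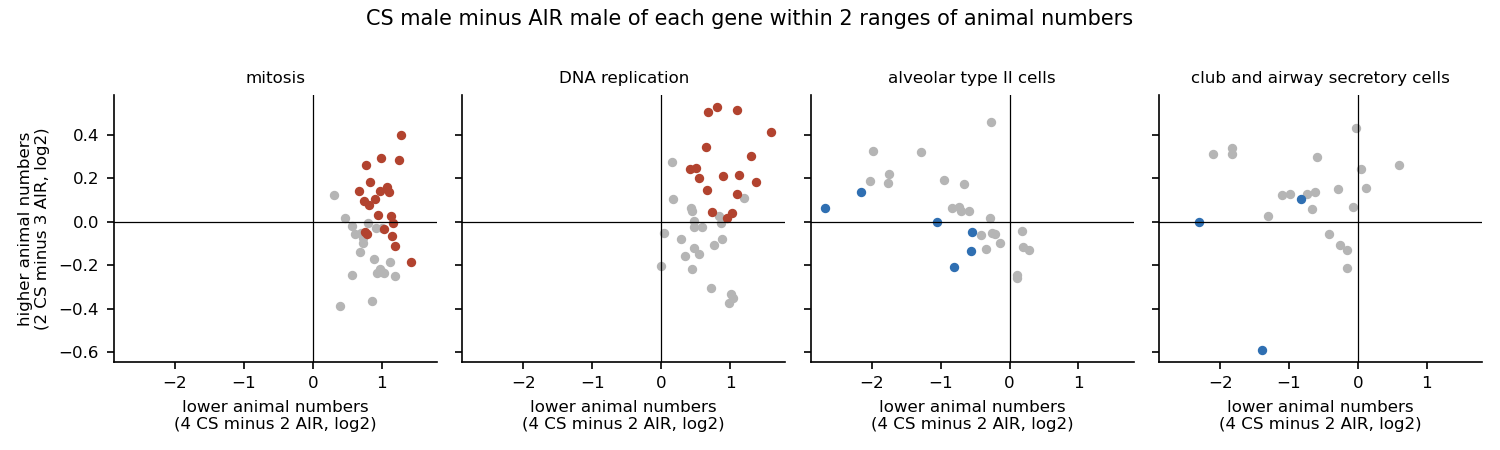
Difference between CS and AIR males of each gene in 4 lists within the lower animal numbers (4 CS and 2 AIR, horizontal axis, log2) and within the higher animal numbers (2 CS and 3 AIR, vertical axis, log2; the axes are scaled separately). Red and blue points were higher and lower over all 11 lungs; the medians are 0.90 and -0.03 for mitosis and -0.59 and 0.02 for type II cells in the lower and the higher numbers.

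The 6 genes of the type II list that were lower were Scd1, Fasn, Fabp5, Lamp3, Lyz2 and S100g. Scd1, the desaturase that makes monounsaturated fatty acids, was at 3.82, 6.14 and 7.36 in CS males, against 7.88, 8.30, 7.30, 7.75 and 6.35 in AIR males. CS male 3 was far below all other lungs, and AIR males 3 and 5 lay within the range of the CS lungs. The difference was -1.51 ± 0.56 (SE, exact permutation p = 0.037, limma adjusted p = 0.89), with -2.67 within the lower and 0.06 within the higher animal numbers, and Scd1 did not pass the threshold without AIR male 2 (-1.31). Fasn, fatty acid synthase, differed by -0.33 ± 0.12, and Lamp3, a protein of the lamellar body membrane, by -0.45 ± 0.18. Fabp5, a fatty acid carrier, differed by -0.33 ± 0.14, and its 3 further probe sets gave -0.34, -0.50 and -0.36. Lyz2 (lysozyme) and S100g, a calcium-binding protein, differed by -0.56 ± 0.25 and -1.05 ± 0.48. In 11 refits with 1 array left out, Scd1 and Fasn each missed the threshold in 1. Lamp3 missed it in 3, Lyz2 and S100g each in 7, and Fabp5 in 8.

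The surfactant proteins did not pass the threshold, although the difference of Sftpb was about as large as those of Fasn and Fabp5. Sftpb differed by -0.32 ± 0.16 (exact permutation p = 0.095), Sftpa1 by -0.32 ± 0.19 (exact permutation p = 0.16), Sftpd by -0.51 ± 0.30 (exact permutation p = 0.16) and Sftpc by -0.12 ± 0.08 (SE, exact permutation p = 0.048). Sftpc lay near the top of the array scale. Sftpa1, Sftpb and Sftpd differed by -0.71, -0.59 and -1.29 within the lower animal numbers and by 0.05, 0.05 and 0.32 within the higher. Cebpa, a transcription factor of type II cell maturation, was at 4.41 to 5.13 in CS males and 4.80 to 5.18 in AIR males and differed by -0.27 ± 0.14 (exact permutation p = 0.082). Srebf1, which controls fatty acid synthesis, differed by -0.19 ± 0.17 (exact permutation p = 0.34).

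The type II list mean was lowest in CS male 3, at 6.35, and lowest among AIR lungs in AIR male 5, at 6.76; these are the lungs with the highest mitosis means of their groups. Without AIR male 5, 16 of the 29 alveolar type II cells genes were lower, without AIR male 2, 0 were, and without any other single array between 2 and 8 were. The count was 2 without CS male 3 and without AIR male 1, and 3 without CS male 2, CS male 4, AIR male 3 and AIR male 4. It was 17 within the lower and 0 within the higher animal numbers, 14 without the arrays high in other tissue, 2 in a fit over all 21 arrays and 1 with the heart muscle covariate. Without the arrays high in other tissue and within the higher animal numbers, 1 type II gene was higher. Of 18 type I cell genes, 0 were higher and 0 lower by limma (median -0.13). Of 15 genes of ion and fluid transport 1 was higher and 0 lower, beside 2.41% of all genes higher.

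Of 34 genes of fatty acid and glycerolipid synthesis, 5 were lower and 0 higher, beside 2.15% of all genes lower, with a median of -0.10. Of the 5, Scd1, Fasn and Fabp5 are also in the type II list. Gpam, the mitochondrial enzyme that starts glycerolipid synthesis, had the lowest p, with 6.68, 6.83 and 7.04 in CS males, against 7.57, 7.72, 7.33, 7.25 and 6.97 in AIR males. Only AIR male 5 fell into the CS range. Gpam differed by -0.52 ± 0.14 (SE, exact permutation p = 0.0065, limma adjusted p = 0.89), with -0.81 within the lower and -0.32 within the higher animal numbers. The fatty acid receptor Cd36 differed by -0.33 ± 0.14. The count was 1 without AIR male 2, 3 without CS male 3, AIR male 1 or AIR male 4, and between 4 and 6 without any other single array. Of 19 genes of cholesterol synthesis and uptake 1 was lower, beside 2.15% of all genes. It was Insig1, which holds the sterol sensor in the endoplasmic reticulum, at -0.53 ± 0.22, and it did not pass the threshold without CS male 2, CS male 3, CS male 4, AIR male 1 or AIR male 2.

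In the airway list, Cyp4b1, a cytochrome P450 of club cells and distal lung, had the lowest p of all genes that were lower and have a symbol and a mean of at least 4 in 1 group. It was at 3.81, 4.05 and 4.26 in CS males, against 5.58, 5.27, 4.77, 5.14 and 4.26 in AIR males. All lungs but AIR male 5 separated. The difference was -0.93 ± 0.20 (SE, exact permutation p = 0.0043, limma adjusted p = 0.89), with -1.39 within the lower and -0.59 within the higher animal numbers. Scgb3a1, a secretoglobin of upper airways, differed by -1.28 ± 0.49 and Aldh1a1, a retinaldehyde dehydrogenase, by -0.38 ± 0.17. Their differences were -2.30 and -0.83 within the lower and -0.00 and 0.11 within the higher animal numbers. Scgb1a1, the defining club cell protein, differed by -0.60 ± 0.29 and did not pass the threshold. Without AIR male 2, 1 of the 23 club and airway secretory cells genes was lower, without AIR male 4 or AIR male 5, 6 were, and 2 were without CS male 2, CS male 3, CS male 4 or AIR male 1. With the heart muscle covariate 1 was. Within the lower animal numbers 13 of the 23 were lower, with a median of -0.62. Within the higher animal numbers 0 were lower and 1 was higher. There 17 of the 23 differences were positive, with a median of 0.125. Of 22 ciliated cell genes, Dnah9, an axonemal dynein, was lower by -0.28 and Deup1, of the deuterosome, was higher by 0.31. Dnah9 and Deup1 stand beside 2.15% of all genes lower and 2.41% higher. In 11 refits with 1 array left out, Deup1 missed the threshold in 9 and Dnah9 in 6.

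Endothelial genes were lower in 4 of 25 and higher in 0, beside 2.15% of all genes lower, with a median of -0.14. Vwf, the von Willebrand factor of larger vessels, was at 4.03, 4.13 and 4.28 in CS males, against 4.86, 4.60, 4.42, 4.31 and 4.47 in AIR males, without overlap. It differed by -0.38 ± 0.11 (SE, exact permutation p = 0.0022, limma adjusted p = 0.89), with -0.58 within the lower and -0.23 within the higher animal numbers. Lyve1, of lymphatic endothelium and some macrophages, differed by -0.33 ± 0.10 and Sox18, an endothelial transcription factor, by -0.37 ± 0.14. Car4, which marks a capillary type that forms near birth in mice, differed by -1.01 ± 0.43, with -2.19 within the lower and 0.21 within the higher animal numbers. Pecam1 and Cdh5, which mark endothelium in general, differed by -0.10 and -0.14 and did not pass the threshold. The endothelium count was between 2 (without AIR male 1) and 6 (without CS male 2, AIR male 3 or AIR male 5) when single arrays were left out.

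Of the 49 genes that were lower without overlap, Grk5 and Afap1l1 are named here for their low p. Over all genes, 0.505% did not overlap. Genes chosen for groups without overlap have a low permutation p by that choice, so it adds no support for them. Grk5, a kinase that desensitises G protein-coupled receptors, was at 5.54, 5.68 and 5.79 in CS males, against 6.04, 6.49, 6.57, 5.91 and 6.10 in AIR males. It differed by -0.55 ± 0.13 (SE, exact permutation p = 0.0022, limma adjusted p = 0.89), with nearly the same value in both number ranges, -0.60 in the lower and -0.52 in the higher. Afap1l1, an actin-associated adaptor, was at 5.44, 5.50 and 5.70 in CS males, against 5.92, 5.95, 5.82, 5.89 and 5.83 in AIR males. It differed by -0.35 ± 0.08 (SE, exact permutation p = 0.0043, limma adjusted p = 0.89), with -0.37 and -0.38 in the lower and higher ranges. Tnfaip8l1, of the TNFAIP8 family, is named in the same way from the 63 higher genes without overlap. Its CS lungs were at 4.06 to 4.70 and its AIR lungs at 3.78 to 4.05. The difference was 0.46 ± 0.12, with 0.36 within the lower and 0.54 within the higher animal numbers.

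In the matrix and mesenchyme list 2 of 29 genes were lower and 0 higher, beside 2.15% of all genes lower, and 1 was lower without CS male 1, CS male 3, CS male 5, AIR male 2 or AIR male 3. Inmt, a methyltransferase that marks matrix fibroblasts of the mature mouse lung, was at 2.48, 3.44 and 4.56 in CS males, against 6.28, 5.79, 5.16, 4.50 and 3.49 in AIR males. The ranges overlapped through AIR males 4 and 5. Inmt differed by -1.53 ± 0.49 (SE, exact permutation p = 0.032, limma adjusted p = 0.89), with -2.71 within the lower and -0.47 within the higher animal numbers. Postn, a matricellular protein, was lower by -0.43.

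In the IGF axis, which signals growth through the receptor encoded by Igf1r, 1 of 18 genes was higher and 1 lower, beside 2.41% of all genes higher and 2.15% lower. Igf1, the ligand, was at 4.06, 4.40 and 4.78 in CS males, against 3.38, 3.55, 3.78, 3.97 and 4.56 in AIR males. The difference was 0.56 ± 0.22 (SE, exact permutation p = 0.045, limma adjusted p = 0.89), and AIR male 5 lay above the CS median. Igfbp3, a binding protein that holds IGFs, was at 3.96, 4.66 and 5.31 in CS males, against 5.95, 5.52, 5.48, 4.51 and 5.35 in AIR males, and differed by -0.72 ± 0.27 (SE, exact permutation p = 0.045, limma adjusted p = 0.89). Igf1 did not pass the threshold when any 1 of 6 arrays was left out (CS males 3, 4 and 5 and AIR males 1, 2 and 3, with differences of 0.44 to 0.54), nor Igfbp3 without AIR male 1 (-0.57). Igf1 differed by 0.94 within the lower and 0.30 within the higher animal numbers, and Igfbp3 by -1.28 and -0.10. Igf2 and Igf1r differed by 0.22 and 0.01 and did not pass the threshold. Of 19 imprinted growth genes, 0 were higher and 0 lower by limma.

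Macrophage genes moved in both directions. Of 18, 4 were lower and 1 higher, beside 2.15% and 2.41% of all genes, with a median of -0.06. The complement genes C1qa and C1qb differed by -0.45 ± 0.14 and -0.36 ± 0.15, the receptor Csf1r by -0.31 ± 0.13 and Ms4a7 by -0.40 ± 0.14 (SE). Fcgr3, an Fc receptor, was higher by 0.43 ± 0.18. C1qc, another chain of the complex that C1qa and C1qb form, differed by -0.02. The count of lower genes was 2 without CS male 4 or AIR male 2, and Fcgr3 did not pass the threshold without CS male 5, CS male 6, AIR male 1, AIR male 3 or AIR male 5. In the 5 arrays not high in other tissue, 0 of the 18 passed the threshold in either direction by limma. Of 30 inflammation genes, Ccl2, a chemokine for monocytes, was higher by 0.54 ± 0.19 and Il33, an epithelial alarmin, lower by -0.55 ± 0.20. Both had dim signals and stand beside 2.41% of all genes higher and 2.15% lower. Ccl2 and Il33 differed by 0.72 and -1.05 within the lower and by 0.21 and 0.01 within the higher animal numbers.

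Genes that respond to smoke constituents in adult tissue were near background in movement. Smoke had ended at gestational day 17.5 and the lungs were taken at E18.5. The study's methods explain this interval by the wish not to detect acute, transient effects. A response closer to the exposure was not measured. Of 9 genes of the aryl hydrocarbon receptor pathway 0 were higher and 0 lower by limma, and the classical target Cyp1a1 was at 1.08 to 1.49 in CS males and 1.19 to 1.45 in AIR males, near the floor of the array. Ahr itself was at 5.43 to 5.87 in CS males and 5.66 to 6.37 in AIR males and differed by -0.27 ± 0.13 (exact permutation p = 0.039), without passing limma's threshold. Of 22 NRF2 targets, 1 was lower, Ephx1 (epoxide hydrolase), by -0.38 ± 0.14, beside 2.15% of all genes lower. A mean of at least 4 over the males was reached by 3 of the 9 aryl hydrocarbon receptor genes and 11 of the 22 NRF2 targets. Of 16 nicotinic receptor subunits 0 passed the threshold, and none had a mean of at least 4. Of 18 hypoxia targets Car9 was higher by 0.35 ± 0.12, while a second probe set of Car9 gave 0.09. Car9 stands beside 2.41% of all genes higher.

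Of 25 genes of the unfolded protein and integrated stress response, 3 were lower and 0 higher, beside 2.15% of all genes lower. They were Dnajb9, Xbp1 and Herpud1, all part of the response to load in the endoplasmic reticulum, at -0.49 ± 0.20, -0.28 ± 0.12 and -0.29 ± 0.13 (SE). The count was 0 without CS male 3, CS male 4 or AIR male 2, 1 without CS male 6, AIR male 1 or AIR male 3, and 2 or 3 without any other single array. Without the arrays high in other tissue it was 0, with 13 of 25 differences positive and a median of 0.03. With the heart muscle covariate 0 were lower and 1 was higher. Of 25 immediate-early genes 2 were higher (Myc by 0.46 and Nr4a2 by 0.42) and 3 lower, among them Nr4a1 by -0.42 ± 0.15, beside 2.41% of all genes higher and 2.15% lower. Without CS male 2, CS male 6 or AIR male 1 the immediate-early genes counted 0 higher and 1 lower, without AIR males 3 or 4 they counted 0 higher and 4 or 3 lower, and without AIR male 5 they counted 2 higher and 1 lower. Without CS male 1 the count was 1 higher and 1 lower, and without CS male 3, CS male 4 or AIR male 2 it was 1 higher and 2 lower. Bhlhe40, a repressor of the clock loop, was lower by -0.36 ± 0.13, the only one of 17 clock genes, beside 2.15% of all genes lower. By limma, 0 genes passed the threshold among 14 genes of androgen and oestrogen metabolism and receptors, 35 lung development regulators, 28 genes of oxidative phosphorylation and 11 smooth muscle genes.

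Striated muscle genes made up several of the largest negative differences. All 21 heart muscle genes were negative, with a median of -0.91. Of these, 5 were lower, beside 2.15% of all genes lower, led by Sln (sarcolipin) at -2.03. Outside the list, Cox6a2, Actn2, Cox8b, Pgam2, Myoz2 and Itgb1bp2, which encode muscle isoforms or sarcomere proteins, were lower by -1.63, -1.56, -1.34, -1.01, -0.99 and -0.76. Cox6a2 was at 4.26, 4.70 and 7.58 in CS males, against 5.94, 7.52, 7.95, 5.33 and 7.23 in AIR males. CS male 6 and AIR males 2, 3 and 5, the lungs with high heart muscle means, held the 4 highest values. Nppa, the atrial hormone gene, was at 10.15 in CS male 6, against 9.99, 10.58 and 10.02 in AIR males 2, 3 and 5, while the other lungs were at 2.11 to 2.77 in CS males and at 2.58 and 2.29 in AIR males. Without the 6 arrays high in other tissue, the median of the heart muscle list was -0.23 and 5 of its genes were lower. The count was 18 without CS male 6, 16 without AIR male 4, 11 without AIR male 1 and between 2 and 4 without any other single array. In the females the median was 0.03. Thymocyte genes were positive in 18 of 18 with a median of 0.58, but 0 passed the threshold by limma, and the median was 0.20 without CS male 1, the lung with the high thymocyte mean.

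The male effects were set against those of the 10 females, 6 CS and 4 AIR. By the study's methods a male and a female were taken from each litter, so the sexes share litters. Which fetuses were littermates is not given in the labels, and the fit treated them as independent. As in males, most CS females had lower and most AIR females had higher animal numbers. The part of this imbalance in the agreement between the sexes was not tested. No difference of the CS effect between the sexes passed a false discovery rate of 10% by limma (0 of 40543 probe sets, lowest adjusted p 0.36), and 1786 (4.41%) had an unadjusted p under 0.05. At a difference over 1.2-fold and an unadjusted p under 0.05, 828 genes (3.73%) differed. Of the 534 genes higher in CS males, 70.4% were also positive in females, against 50.3% of all genes, and 74 (13.9%) were also higher there, against 2.85% of all genes. The 74 are 11.7% of the 633 genes higher in CS females. Of the 477 genes lower in CS males, 64.4% were also negative in females, against 49.7% of all genes, and 44 (9.22%) were also lower, against 2.65% of all genes. The 44 are 7.48% of the 588 genes lower in CS females. At this threshold 0 of 43 mitosis genes, 1 of 40 DNA replication genes and 0 of 29 type II genes differed between the sexes.

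**Figure D5:**
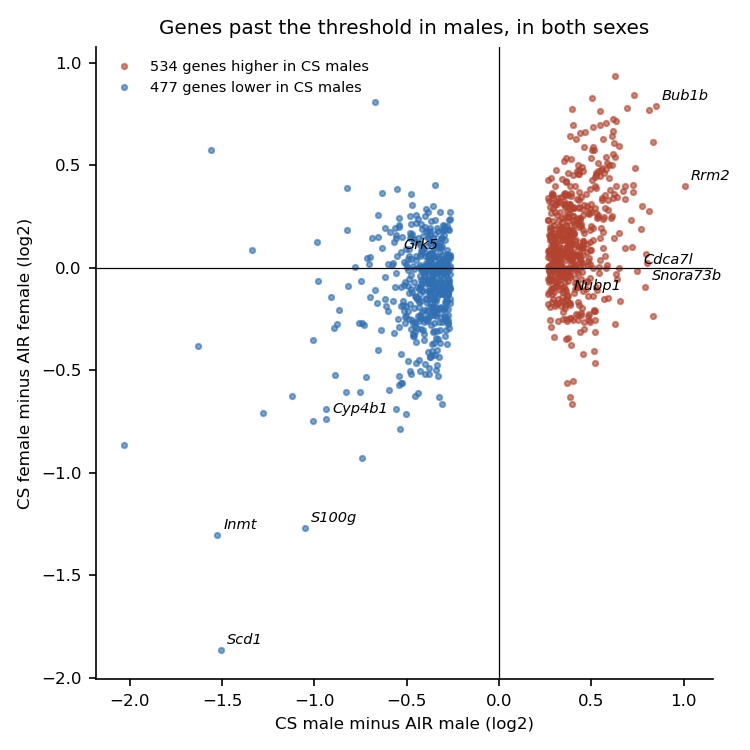
Log2 difference between CS and AIR in males (horizontal axis) and in females (vertical axis) for the 534 genes higher (red) and 477 genes lower (blue) in CS males. The division gene Bub1b and the lipid gene Scd1 lie along the diagonal, while Grk5, Nubp1, Snora73b and Cdca7l lie near 0 on the female axis.

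In the females the median of the mitosis list was 0.53, of the DNA replication list 0.29 and of the type II list -0.49. Scd1 differed by -1.87, S100g by -1.27 and Cyp4b1 by -0.74 in females. The next genes are listed for a low unadjusted p for the difference between the sexes, so their unlike values follow from that choice. Riok2, a kinase of ribosome assembly, differed by -0.04 in males and 0.59 in females, and a second, dimmer probe set gave 0.09 in males. Nubp1, an iron-sulfur cluster assembly factor, was at 4.04 to 4.55 in CS males and 3.71 to 4.02 in AIR males, without overlap, and differed by 0.37 in males and -0.14 in females. Acad11, an acyl-CoA dehydrogenase, differed by -0.39 in males and 0.15 in females, and Grk5 by -0.55 in males and 0.06 in females. Snora73b, a small nucleolar RNA whose near-identical copy makes its probe set uncertain, differed by 0.79 in males, without overlap, and by -0.09 in females.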

How the data were processed

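Lungs of 21 fetuses were hybridised to Affymetrix mouse gene arrays, 1 array each. The authors made gene-level log2 intensities by RMA in Affymetrix Expression Console 1.3.0.187 and deposited them as 1 table. Of 41345 probe sets, 802 redundant ones were removed, leaving 40543. Array number limits the precision. CS males and AIR males were grouped by the labels and fitted with limma 3.58.1 (R 4.3.3), with Benjamini-Hochberg adjustment, with a threshold of 1.2 for the fold and 0.05 for the unadjusted p. Genes described singly were also tested by an exact two-sided permutation test over 462 regroupings. Scripts ran in Python 3.11.15 with numpy 2.4.6 and were tested on simulated data. Members and gene lists were chosen with earlier results of these data known. Genes named are the 12 largest positive and negative differences past the threshold with a mean of at least 4, the defining members of each list and up to 4 with its smallest p-values, genes the study names, genes without overlap or with the lowest p for a sex difference, and sex checks; further genes were named after their values were seen. Alternatives covered the fit, filters, normalization, animal number ranges, other tissue and each array left out. Promoters came from RefSeq (GRCm38.p6).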

Additional observations from a re-analysis of the deposited data

Results flagged for a closer look

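Of 272 groups of 5 or 6 lungs examined, 20 (7.35%) held a lung that stood far from the others of its group, where chance gives about 1 in 20. CS male 6 was the highest CS lung in the heart muscle list (6.05, next 4.04) and in Cox6a2 (7.58, next 5.13), Actn2 (5.33, next 2.67), Pgam2 (5.0, next 3.75), Myoz2 (4.04, next 3.0), Itgb1bp2 (4.56, next 3.26), Sln (6.9, next 4.08) and Nppa (10.15, next 2.77). CS male 1 was the highest in the thymocyte list (4.95, next 2.7) and the lowest in the imprinted growth list (5.79, next 5.98). CS male 3 was the lowest CS lung in Cd36 (7.5, next 7.83), Lyz2 (7.5, next 8.49), Sftpa1 (8.05, next 8.74) and Postn (7.19, next 7.84), and the highest in Foxm1 (5.81, next 5.29) and in the liver list (2.19, next 1.79). Among AIR lungs, AIR male 1 was the lowest in Prim1 (2.47, next 3.45), AIR male 5 in Sftpc (11.5, next 11.56) and AIR male 3 in Lyve1 (6.88, next 7.07), while AIR male 5 was the highest in Myc (4.69, next 4.08).

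The CS effect in males minus that in females had an unadjusted limma p under 0.05 in 12 named genes, and 0 passed a false discovery rate of 10% by limma. The 12 include genes that were named for this low p. It was positive for Snora73b (0.88), Cdca7l (0.76), Myc (0.57) and Nubp1 (0.51). It was negative for Mir761 (-0.79), Tmem38b (-0.67), Riok2 (-0.62), Grk5 (-0.61), Dnajb9 (-0.58), Acad11 (-0.53), Ltn1 (-0.52) and C1qa (-0.5).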

How the results depend on the processing

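The count of genes higher in CS males (534) was 261 over probe sets with a mean of at least 3, 52 at a fold of 1.5 and 92 at an unadjusted p of 0.01, and that of genes lower (477) was 266, 54 and 101, and 871 within the lower animal numbers. With 1 array left out the counts were 418 to 629 higher and 431 to 651 lower. At a false discovery rate of 10%, limma then called 0 to 2 probe sets in males (2 without CS male 5, 2 without AIR male 3, 1 without AIR male 5) and 0 to 2 for the sex difference (2 without CS female 8, 2 without AIR male 3). With the replicate number as a block (replicate block), 537 were higher, 499 lower and 0 passed the false discovery rate by limma; same-numbered lungs deviated together with correlations of 0.0284, 0.1258, 0.0026, -0.0053 and -0.007, so they share only a number. Of 96 named genes, only the 74 past the threshold could lose it, and a gene that stayed below it counts as kept. Fits that change only the variance estimate or the set of probe sets fitted could not change a difference or its sign. Over the 96 genes, 2067 of 2585 values kept their direction and side of the threshold, 436 no longer passed it and 45 newly passed it. In 37 values the sign changed. Within the higher animal numbers these were Top2a (-0.004), Mki67 (-0.25), Ezh2 (-0.013), Mybl2 (-0.45), Scd1 (0.063), S100g (0.14), Insig1 (0.16), Sftpa1 (0.05), Sftpb (0.048), Sftpd (0.32), Aldh1a1 (0.11), Scgb1a1 (0.024), Car4 (0.21), Il33 (0.01), Cdh5 (0.066), Igf1r (-0.112), Igf2 (-0.014), C1qc (0.072) and Cyp1a1 (0.107). Riok2 became 0.029 as the mean of its probe sets, 0.039 within the lower animal numbers, -0.098 (without AIR male 1) to 0.036 (without CS male 1) with 1 array left out, and 0.25 without arrays high in other tissue. Igf1r became -0.019 with the number range as a block, -0.001 with the heart muscle covariate and -0.034 to 0.046 with 1 array left out. C1qc became 0.023 with that block, 0.134 with that covariate, 0.024 without arrays high in other tissue and -0.089 to 0.04 with 1 array left out. Nppa became 0.503 with that covariate and 0.038 without those arrays. The cause was not tested.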
